A study of Arabidopsis thaliana with 48 samples.

Results

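The comparison described is that of seedlings given paraquat and heat together (PQ + HS, 3 libraries) with untreated control seedlings (3 libraries), out of 48 libraries in 16 groups. Its members are all genes whose normalised read count averaged 10 or more over the 48 libraries, which are 21536 of the 32833 genes of the table. All libraries came from pooled, 10-day-old seedlings of wild-type Arabidopsis thaliana Col-0, an accession used worldwide as the reference plant. Control seedlings grew on agar medium at 21°C in light of 50 µmol m-2 s-1. PQ + HS seedlings germinated and grew on the same medium with 0.05 µM paraquat (PQ), and were then held at 33°C (HS) for 1.5 h in the same light before freezing. The libraries labelled PQ (3) had the paraquat without the heat, and those labelled HS (3) the heat without the paraquat. Paraquat thus acted from germination on and heat at the end only, so the combination differs from each single stress by a treatment of another length.

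As background, heat unfolds proteins and frees heat stress transcription factors (HSFs), which bind heat shock elements in promoters and switch on chaperones, the proteins that hold, refold or disaggregate other proteins. Paraquat takes electrons from photosystem I in the chloroplast and passes them to oxygen, which gives superoxide and then hydrogen peroxide. Ascorbate peroxidases, superoxide dismutases and catalases remove these reactive oxygen species (ROS), and several HSFs are known to respond to them as well as to heat.

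The control libraries held 77854037 to 80570320 reads on genes and the PQ + HS libraries 76750669 to 78963567. Chi-square per degree of freedom between replicates was 4.43 to 5.60 in the control and 2.34 to 2.73 in PQ + HS, above sampling noise in each pair, while PQ replicate 1 stood apart with 0.136% plastid reads against 0.0156% to 0.0158% in the other two. Marker levels went against some labels. The summed normalised count of 16 small heat shock protein genes, with a median of 3508 in the control and 6573830 in PQ + HS, was 1835978 in the libraries labelled PQ, which were kept at 21°C, and 148441 in those labelled HS. It was 3207 in those labelled PQ + HL + HS (HL, high light) and 2729 in those labelled Salt + PQ + HL + HS, although both labels name heat. The comparisons with the libraries labelled HS or PQ below, and the interaction, rest on those labels as given.

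In PQ + HS, 84.3% of the genes tested were called against the control (limma, adjusted p under 0.05), 9077 higher, which is 42.1%, and 9071 lower, also 42.1%. A change of at least 2-fold was reached by 3309 higher genes (15.4%) and 3111 lower genes (14.4%). Counts of list members below are to be read beside these shares. The median log2 fold change over all genes was -0.01, with quartiles of -0.59 and 0.58. Deposited values rest on size factors of 0.770 to 0.796 in PQ + HS and 1.23 to 1.25 in the control at nearly equal depth. When all libraries were brought to the same total instead, the median of all genes moved to -0.66, and 4048 genes were called higher and 15453 lower, so a gene that was higher by less than that shift turns to lower.

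**Figure D1:**
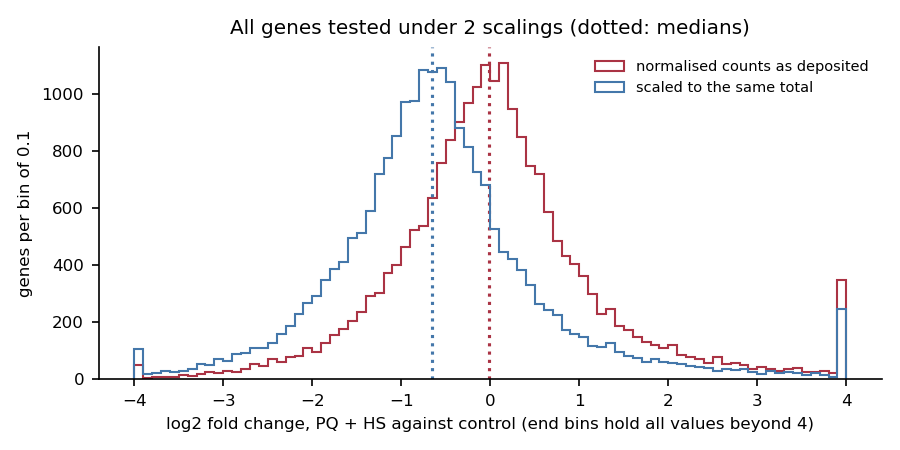
The histogram gives the number of genes tested (y axis) in bins of 0.1 of the log2 fold change of PQ + HS against control (x axis), for normalised counts as deposited and for libraries scaled to the same total. The dotted medians lie at -0.01 and -0.66, and a tail of genes extends beyond 4 on the right under both scalings.

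Chaperone genes carried the largest rises. The 4 lists of chaperones together (small heat shock proteins, HSP70s, HSP90s with HSP100s, and cochaperones with thermotolerance factors) took 0.704% ± 0.0136 of all reads in the control and 18.7% ± 0.0218 in PQ + HS (SD, n = 3 each), 26.6 times as much. Each PQ + HS library lay above each control library, and the exact permutation test gave p = 0.1, the smallest that 3 against 3 allows. In the libraries labelled PQ the median share was 6.78%, and in those labelled HS it was 1.99%. Over the same libraries the nuclear genes of the light-harvesting complexes and Rubisco fell from 7.91% ± 0.205 to 4.90% ± 0.00235 of reads. Their summed normalised count changed little, with 4888540 to 5228383 in the control and 4856954 to 4884522 in PQ + HS. The most abundant transcript of the control was LHCB1.3, a light-harvesting protein of photosystem II, with 1.83% of reads, and in PQ + HS it was HSP70-4, a cytosolic HSP70, with 1.58%. HSP90.1 followed with 1.41%, HSP101 with 1.29%, HSP17.6C-CI with 1.09% and HSP70b with 1.06%.

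**Figure D2:**
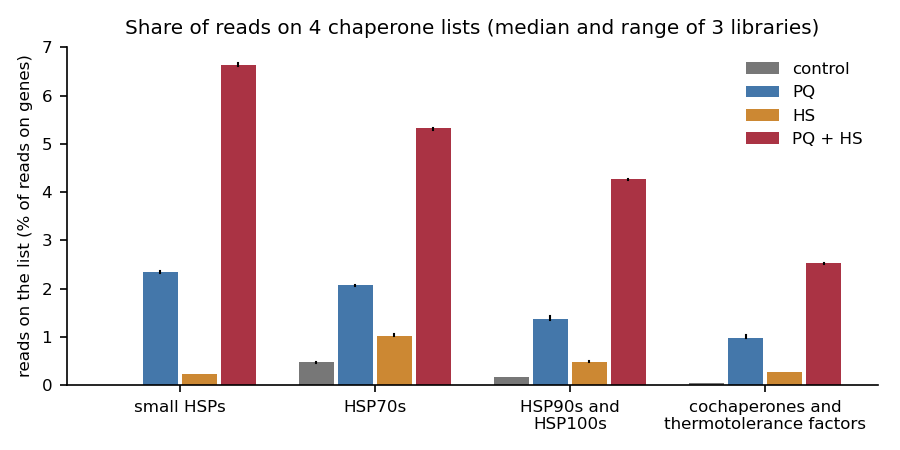
Bars give the median share of reads on each of the 4 chaperone lists, in % of reads on genes, in the control and in the libraries labelled PQ, HS and PQ + HS, and the black lines span the 3 libraries. In each list the order from low to high is control, HS, PQ and PQ + HS, and the small heat shock proteins reach 6.63% in PQ + HS.

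Small heat shock proteins (sHSPs) bind unfolding proteins without ATP and keep them from aggregating. Of 16 measured members, 15 rose in PQ + HS, all by at least 2-fold, and 1 fell, with a median log2 fold change of 12.44 beside -0.01 over all genes. HSP21, the chloroplast sHSP, had 3.20, 4.86 and 3.19 normalised counts in the control libraries and 195231, 198413 and 203271 in those of PQ + HS. Its libraries labelled HS had 342 to 451 counts and those labelled PQ 44391 to 45483. The control is thus near the limit of detection, PQ + HS lies far above both single-stress groups, and no group overlaps another. On the log2(count + 1) scale HSP21 rose by 15.37 ± 0.27 (SE; adjusted p = 7.29e-40), the largest rise of any gene. HSP22.0-ER, of the endoplasmic reticulum, rose from 10.9 ± 5.39 to 401807 ± 5486 counts (SD, n = 3; log2 15.17). HSP17.6C-CI, a cytosolic class I member, rose from 49.9 ± 15.7 to 1081368 ± 3138 (log2 14.42). HSP23.6-M, of mitochondria, rose by 13.70 and HSP15.7-Px, of peroxisomes, by 8.93, so members from each of these compartments rose. HSP15.4 was the exception, with 1151 to 1199 counts in the control and 908 to 1041 in PQ + HS (log2 -0.25, adjusted p = 0.000521).

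The promoters of 4 strongly raised genes are printed here because they carry the element that HSFs bind, an inverted repeat of GAA. Each is the 300-base window from 250 bases before to 50 bases after the gene start in TAIR10.1 (RefSeq), and capitals mark each match to GAANNTTC or TTCNNGAA, which read the same on both strands, with overlapping matches joined into a run of 3 units. They are HSFA2 at chr2:11135374-11135673 (plus strand), HSP17.4A-CI at chr3:16984818-16985117 (minus strand), HSP17.6C-CI at chr1:19980049-19980348 (plus strand) and HSP21 at chr4:13819922-13820221 (minus strand).
HSFA2: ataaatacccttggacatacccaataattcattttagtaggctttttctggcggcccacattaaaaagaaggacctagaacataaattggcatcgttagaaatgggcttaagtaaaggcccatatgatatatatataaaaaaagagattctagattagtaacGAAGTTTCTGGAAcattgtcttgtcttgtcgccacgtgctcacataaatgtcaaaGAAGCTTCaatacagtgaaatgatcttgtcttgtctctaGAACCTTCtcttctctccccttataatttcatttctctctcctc
HSP17.4A-CI: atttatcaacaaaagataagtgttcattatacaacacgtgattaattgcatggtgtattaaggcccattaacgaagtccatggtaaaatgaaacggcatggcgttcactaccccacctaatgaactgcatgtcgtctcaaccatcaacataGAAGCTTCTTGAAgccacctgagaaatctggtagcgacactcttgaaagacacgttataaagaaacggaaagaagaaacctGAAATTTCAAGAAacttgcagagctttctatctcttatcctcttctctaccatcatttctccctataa
HSP17.6C-CI: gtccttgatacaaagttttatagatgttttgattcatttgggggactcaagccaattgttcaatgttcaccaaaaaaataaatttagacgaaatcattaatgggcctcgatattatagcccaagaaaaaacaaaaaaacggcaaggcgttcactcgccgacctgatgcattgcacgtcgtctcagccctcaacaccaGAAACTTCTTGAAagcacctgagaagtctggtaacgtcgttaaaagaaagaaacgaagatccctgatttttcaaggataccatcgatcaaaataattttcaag
HSP21: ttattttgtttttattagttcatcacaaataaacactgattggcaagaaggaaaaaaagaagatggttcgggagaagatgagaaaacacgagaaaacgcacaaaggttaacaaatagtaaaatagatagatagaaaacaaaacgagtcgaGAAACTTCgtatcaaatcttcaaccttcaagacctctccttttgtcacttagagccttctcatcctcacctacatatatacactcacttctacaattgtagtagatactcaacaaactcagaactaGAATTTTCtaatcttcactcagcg

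HSFA2 held 4 pairs, HSP17.4A-CI 4, HSP17.6C-CI 2 and HSP21 2. A pair was present in 9 of 16 sHSP promoters (56.3%) and in 19.0% of the promoters of all genes tested (21413 with a sequence), and a run of 3 units in 2 of 16 against 0.546%. Among the HSP70s 5 of 17 held a pair, among the cochaperones 6 of 14 and among the HSFs 7 of 19. The HSP90s and HSP100s, with 2 of 10 and no run of 3 units, were near the share over all genes. Of the 10 largest rises 5 held a pair, and of the 10 largest falls 3. HSP22.0-ER and HSP18.2 were among the largest rises without a pair in this window. A match is a description of letters, not of binding.

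ATP-driven chaperones rose as a group. Of 17 HSP70 genes tested, 16 rose (15 by at least 2-fold, median 3.27) and BIP3 was not called. HSP70b had 582 to 639 counts in the control and 1042460 to 1057960 in PQ + HS, a log2 rise of 10.76 ± 0.06 (SE). HSP70-4 rose from 3222 ± 169 to 1566725 ± 7567 (log2 8.93), and the constitutive HSC70-1 by 2.01, which shows how far members of one family differed. BIP1 and BIP2, the HSP70s of the endoplasmic reticulum, rose by 3.91 and 4.04. All 10 genes of the HSP90 and HSP100 families were higher (9 by at least 2-fold, median 4.34), of which HSP90.4, with the smallest rise (log2 0.40), is at -0.25 under scaling to the same total. HSP101, the disaggregase that plants need to survive heat, had 1055, 1133 and 1106 counts in the control and 1278552, 1280347 and 1279371 in PQ + HS (log2 10.19 ± 0.04 SE, adjusted p = 4.08e-65). HSP90.1 rose by 9.81.

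Cochaperones and thermotolerance factors were all 14 called higher, 12 by at least 2-fold, with a median of 5.79, and 1 of the 14 is lower under scaling to the same total. ROF2, a peptidyl-prolyl isomerase that binds HSP90, rose from 613 ± 44.2 to 948060 ± 7354 counts (log2 10.59). BAG6, a partner of HSP70s, rose by 9.04. MBF1C, a transcriptional coactivator needed for thermotolerance, had 1418 to 1614 counts in the control and 150551 to 154020 in PQ + HS (log2 6.68 ± 0.05 SE), with values of 16777 to 17179 in the libraries labelled HS and 38783 to 43878 in those labelled PQ. DREB2A, which acts upstream of HSFA3, rose by 6.51. The 4 groups of MBF1C do not overlap, and their order is the one seen for HSP21.

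Among the heat stress transcription factors 14 of 19 tested genes rose (10 by at least 2-fold), 1 fell and 4 were not called, with a median of 1.45; scaled to the same total, 11 were higher and 7 lower. HSFA2, which prolongs the heat response, had 90.3, 112 and 112 counts in the control and 230445, 230628 and 227185 in PQ + HS (log2 11.09 ± 0.09 SE, adjusted p = 7.62e-53). HSFA7B rose from 2.94 ± 0.440 to 7808 ± 160 counts (log2 10.96), HSFA3 by 5.15 and HSFB1 by 4.53. Of the HSFA1 genes, which start the response and are present without stress, HSFA1D rose by 1.70 and HSFA1E by 1.45, whereas HSFA1B was at -0.04 and was not called. HSFA6A was the 1 that fell, from 115 to 126 counts in the control to 20.1 to 31.2 in PQ + HS (log2 -2.30).

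The unfolded protein response of the endoplasmic reticulum, in which BZIP28 and BZIP60 raise ER chaperones, had 13 of 14 genes called higher (11 by at least 2-fold, median 2.57), and 11 higher and 2 lower under scaling to the same total. ERDJ3A, a J-domain cochaperone, rose from 502 ± 24.4 to 54096 ± 275 counts (log2 6.75), CNX1 (calnexin) by 3.16, BZIP28 by 2.89 and BZIP60 by 1.55. BIP3 had 145 to 217 counts in the control and 164 to 200 in PQ + HS (log2 -0.02 ± 0.35 SE, adjusted p = 0.957).

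**Figure D3:**
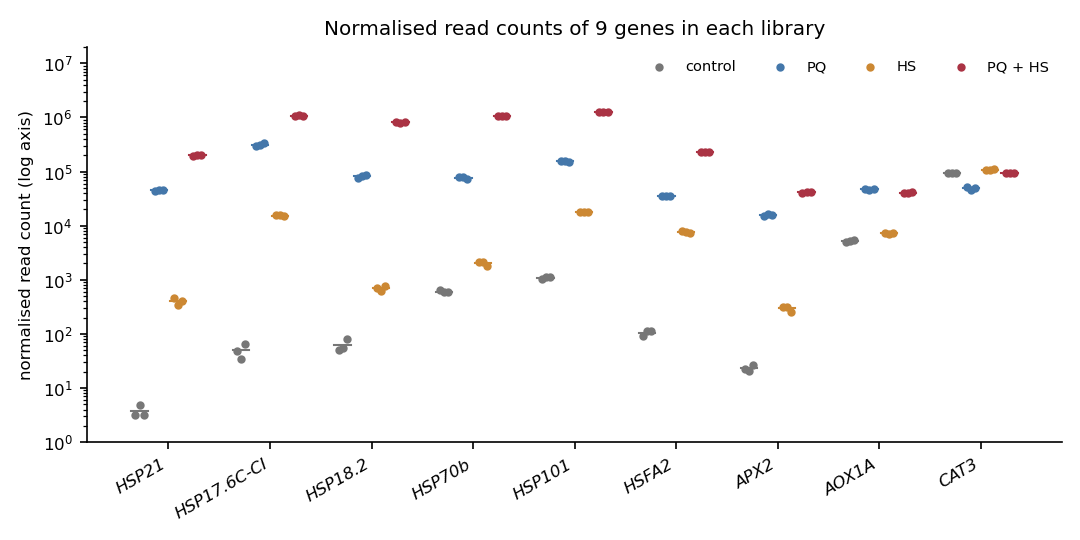
Points give the normalised read count of 9 genes (log axis) in each library of the control and of those labelled PQ, HS and PQ + HS, and short lines the group means. The 3 libraries of a group lie close together, PQ + HS is highest for HSP21 to APX2, while for AOX1A it lies below the libraries labelled PQ and for CAT3 it overlaps the control.

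Enzymes that scavenge ROS changed less, with 1 exception. Among all genes tested 42.1% were called higher and 42.1% lower. Of 32, 22 were higher (7 by at least 2-fold), 8 lower and 2 not called, with a median of 0.40, and the balance turns to 12 higher and 19 lower under scaling to the same total and to 14 and 15 under quantile normalization. APX2, the stress-inducible cytosolic ascorbate peroxidase, had 22.4, 20.3 and 26.3 counts in the control and 40213, 41030 and 41954 in PQ + HS (log2 10.75 ± 0.11 SE, adjusted p = 4.11e-49). APX1, the main cytosolic form, rose from 43889 ± 475 to 186543 ± 437 (log2 2.09), and its PQ + HS libraries lay within the range of those labelled PQ, 171354 to 191446. DHAR2, which regenerates ascorbate, rose by 1.87 and CSD3, a superoxide dismutase, by 1.27. MDAR3 fell by 1.36, and CAT3, a catalase, had 93507 to 95126 counts in the control and 91990 to 95115 in PQ + HS (log2 -0.01, adjusted p = 0.739).

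Markers of oxidative and mitochondrial stress were split, with 8 of 14 higher (7 by at least 2-fold) and 6 lower. Under scaling to the same total 7 went each way. Of all genes, 42.1% were called in each direction and 15.4% rose by at least 2-fold. AOX1A, the alternative oxidase of mitochondria, had 5007 to 5322 counts in the control, 39699 to 42118 in PQ + HS, 45960 to 47932 in the libraries labelled PQ and 6991 to 7319 in those labelled HS (log2 against control 2.97 ± 0.03 SE). NAC013, a factor of mitochondrial retrograde signalling, rose by 3.61, UPOX by 3.38 and the zinc finger factor ZAT10 by 4.01. RBOHD, the NADPH oxidase of ROS signalling, fell by 0.53 and GSTU25 by 2.92. The tau glutathione S-transferases, which detoxify electrophiles, moved both ways with 13 of 26 higher (9 by at least 2-fold) and 12 lower (7), and 9 and 16 under scaling to the same total. GSTU5 rose from 9973 ± 88.9 to 160233 ± 3089 counts (log2 4.01) and GSTU3 by 5.49, while GSTU12 fell by 3.54, to 2.60 to 7.55 counts. Of 3 genes for carriers reported to move paraquat, PDR11 fell by 2.15, RMV1 fell by 0.53 and LAT4 was higher by 0.59, which becomes -0.057 under scaling to the same total.

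Iron genes moved both ways. In all 14 genes of the list, 6 were higher (4 by at least 2-fold) and 8 lower (6). Under scaling to the same total 4 were higher and 10 lower. Among all genes 42.1% were called in each direction, and 15.4% rose and 14.4% fell by at least 2-fold. Members are named here for their role after their values were seen. FER1 and FER3, the chloroplast ferritins that store iron, rose from 18420 ± 544 to 119386 ± 1700 counts (log2 2.70) and from 3474 ± 71.3 to 19229 ± 81.7 (log2 2.47). The transporter IRT1 and the reductase FRO2, with which roots take up iron, fell by 3.17 and 3.66, and BHLH100, a regulator of iron deficiency, by 3.15. NEET, an iron-sulfur protein, was higher by 0.37 as deposited and at -0.28 under scaling to the same total. IRT1 is also one of the root markers, whose summed count was 192014 to 203634 in the control and 76290 to 78362 in PQ + HS, with 2 of 8 members higher and 4 lower. In whole seedlings fewer cells of a type and less RNA per cell cannot be told apart, and the part of root tissue in these falls was not tested.

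Abscisic acid (ABA) genes rose in most cases, with 20 of 22 called higher (15 by at least 2-fold, median 1.66). Under scaling to the same total 14 were higher and 5 lower. Of all genes, 42.1% were called higher and 15.4% rose by at least 2-fold. Genes of both synthesis and breakdown rose. NCED3, which makes ABA, rose by 2.24 and CYP707A4, which breaks it down, from 122 ± 12.0 to 2714 ± 96.0 counts (log2 4.47). HAI1, one of the phosphatases that shut off ABA signalling, had 322 to 382 counts in the control, 2956 to 3254 in PQ + HS, 8437 to 9578 in the libraries labelled PQ and 1186 to 1256 in those labelled HS, so that the combination lay between both single stresses. RD29B, a late ABA-responsive gene, followed the same order, with means of 1063 in the control, 2832 in PQ + HS, 16875 in the libraries labelled PQ and 2076 in those labelled HS. ABA2 was higher by 0.33 and turns to -0.32 under scaling to the same total.

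Defence genes differed between the lists, beside 42.1% of all genes called in each direction. The salicylic acid and camalexin list had 12 of 16 lower (8 by at least 2-fold), 3 higher and a median of -1.26. CYP71A12, of indole and camalexin synthesis, had 1360 to 1730 counts in the control and 71.6, 95.7 and 89.7 in PQ + HS (log2 -4.13 ± 0.27 SE), below the 485 to 719 of the libraries labelled HS and the 860 to 960 of those labelled PQ. CYP79B2 fell by 3.00, the pathogenesis-related gene PR2 by 3.45 and ICS1, which makes salicylic acid, by 0.59, while WRKY70 rose by 2.39. Jasmonate genes were mixed, with 14 of 24 higher, 7 lower and a median of 0.32, and 8 higher and 14 lower under scaling to the same total. The plant defensins PDF1.2A, PDF1.2B and PDF1.2C rose by 4.60, 5.18 and 5.94. LOX2, an enzyme of jasmonate synthesis, fell from 69955 ± 2914 to 16433 ± 368 counts (log2 -2.09), and AOS by 0.53. VSP2 (log2 -0.24, adjusted p = 0.0326) loses its call when control replicate 1 or 3 or PQ + HS replicate 2 or 3 is left out, and also with no filter (limma, adjusted p = 0.0515), with only the compared groups in the fit (0.0631) and with DESeq2 on recovered reads (0.0694).

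Aliphatic glucosinolates are sulfur-rich defence compounds of this plant family. All 13 genes of their synthesis fell by at least 2-fold in PQ + HS, beside 14.4% of all genes, with a median of -2.08, and all 13 stayed lower under scaling to the same total and under quantile normalization. CYP79F1, which takes the first step from the elongated methionine, had 4926, 5289 and 5188 counts in the control and 293, 273 and 282 in PQ + HS (log2 -4.18 ± 0.15 SE, adjusted p = 3.78e-27). MYB76, MYB29 and MYB28, the factors that control the pathway, fell by 4.03, 1.98 and 1.79, and MAM3, which elongates the side chain, by 3.29.

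Photosynthesis genes moved little on this scale. The share of all genes called was 42.1% in each direction. Of 24 light-harvesting and Rubisco genes, 14 were lower, 8 higher and 2 not called, with a median of -0.16, and 22 were lower under scaling to the same total and 23 under quantile normalization. LHCB2.3 was the 1 member that fell by at least 2-fold, from 30299 ± 809 to 8230 ± 149 counts (log2 -1.88), and LHCA1 was higher by 0.96 as deposited but at -0.23 under quantile normalization. In chlorophyll synthesis 8 of 14 genes were lower and 4 higher, and 12 and 0 under scaling to the same total. CAO, which makes chlorophyll b, fell by 1.15 and PORB, of the light-dependent step, by 0.98.

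Mitotic genes fell, beside 42.1% of all genes called in each direction and 14.4% lower by at least 2-fold. Of 15 mitotic genes, 14 were lower, 13 of them by at least 2-fold. KNOLLE, the syntaxin of the cell plate, was not called (log2 0.12). CYCA1;1, a cyclin, had 459 to 498 counts in the control, 353 to 376 in the libraries labelled HS, 231 to 302 in those labelled PQ and 44.2 to 52.8 in PQ + HS (log2 -3.30 ± 0.12 SE). CYCB2;1 fell by 2.51 and CDKB2;1, a mitotic kinase, by 1.88. Growth factors of the PIF family and their targets went the other way in 10 of 13 cases, though under scaling to the same total 3 were higher, 3 lower and 7 not called. PIF7 and PIF4, which drive warm-temperature elongation, rose by 2.08 and 1.45, whereas EXPA8, an expansin that loosens cell walls, fell from 3206 ± 223 to 390 ± 45.1 counts (log2 -3.04).

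In the clock 10 of 13 genes were higher and 3 lower, and 7 and 6 under scaling to the same total. For this list and those that follow, 42.1% of all genes were called in each direction as deposited. Under scaling to the same total 4048 of all 21536 genes were higher and 15453 lower. PRR9, a repressor active in the morning, rose from 246 ± 31.5 to 5890 ± 87.7 counts (log2 4.59) and LHY fell from 7011 ± 147 to 2167 ± 7.91 (log2 -1.69). Within the flavonoid path 6 of 10 genes rose (5 by at least 2-fold) and 4 fell (4). Under scaling to the same total the counts were 5 and 4. By at least 2-fold, 15.4% of all genes rose and 14.4% fell. CHS, the entry enzyme, rose by 1.24 and FLS1, which makes flavonols, by 1.57, while DFR, LDOX and UF3GT, which lead to anthocyanins, fell by 3.77, 3.63 and 4.86. Of 8 osmoprotectant genes 5 were higher and 3 lower (median 0.34), a balance that turns to 3 and 4 under scaling to the same total. GOLS1 and GOLS2 (galactinol synthesis, known targets of HSFs) rose by 8.16 and 4.98, and P5CS1, of proline synthesis, fell by 1.49. Among plasma membrane aquaporins 12 of 13 were higher and 1 lower, and 7 and 4 under scaling to the same total. PIP2;3 rose by 4.08 and PIP2;8 fell by 2.20. Of the autophagy genes 10 of 11 were higher (3 by at least 2-fold), and 6 under scaling to the same total, with ATG8H at 2.48 and ATG9 at 1.41. Of the 9 genes that the study followed in mutants or an overexpressor, MBF1C, APX1, ATG9, NEET and ABA2 were higher and RBOHD, AOS, ICS1 and EIN2 (log2 -0.47) lower. The last 4 fell by 0.47 to 0.59, and 6 of the 9 were lower under scaling to the same total.

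**Figure D4:**
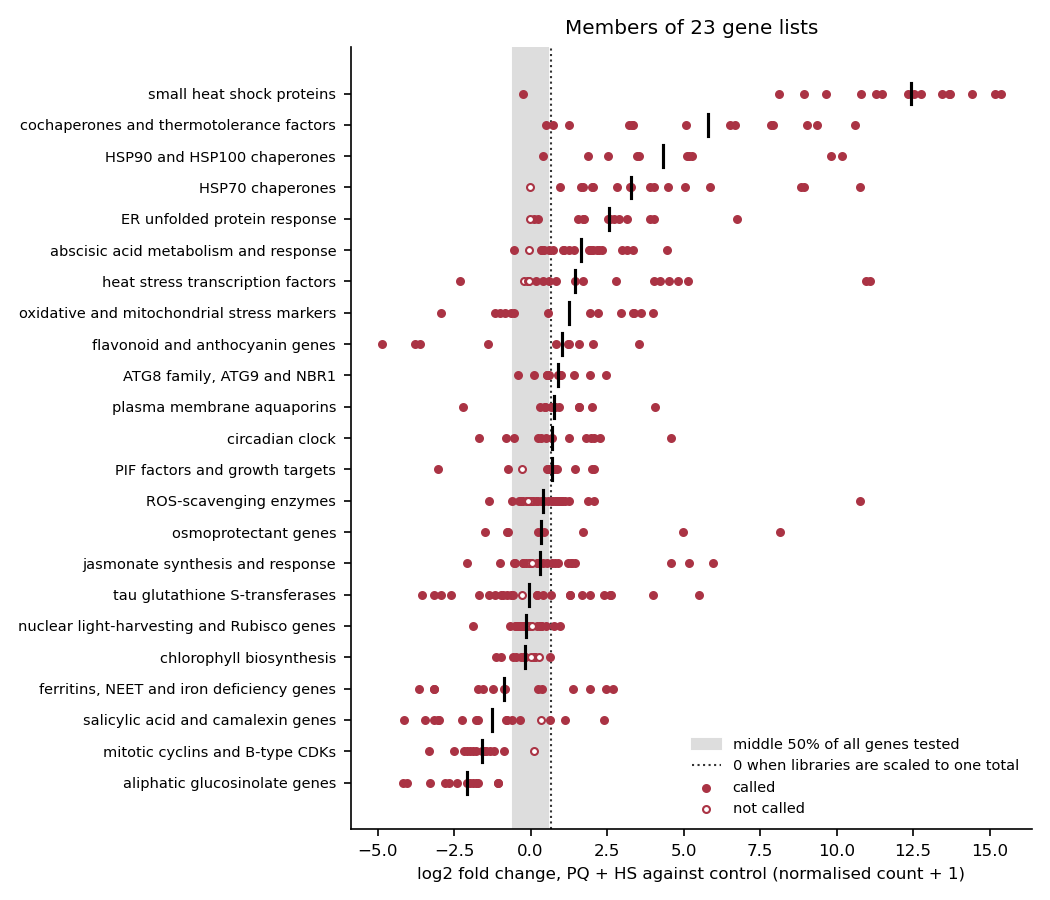
Each point is the log2 fold change of PQ + HS against control (x axis) of a gene tested, in 1 of 23 gene lists (y axis), filled where called, and black bars are list medians. The grey band holds the middle 50% of all genes, from -0.59 to 0.58, the dotted line is the value that becomes 0 when libraries are scaled to one total, and the 4 chaperone lists lie on the right, with medians of 3.27 to 12.44.

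The 10 largest rises were 9 sHSP genes and, outside the lists, AT1G21940, an uncharacterized gene with 0 reads in the 3 control libraries and 5643 to 5894 normalised counts in PQ + HS. Set against a floor of 3 reads over the control group, it was at least 7145-fold higher. The 10 largest falls were in none of the lists. AT3G12900, an oxygenase of the 2-oxoglutarate type, had 209 to 293 counts in the control and 0, 0 and 5.03 in PQ + HS (log2 -7.10 ± 0.74 SE). AT3G28510, a P-loop hydrolase, had 125 to 131 counts in the control and 1 read over the 3 libraries of PQ + HS, 303-fold fewer with a counting interval of 54.1 to 11987, and its relative AT3G28580 had 3 reads (78.7-fold, 26.7 to 383). AT2G43860 had 2 reads (117-fold, 32.2 to 970). NUDT24, a nudix hydrolase, fell by 5.41, GASA5, a gibberellin-regulated peptide, by 5.29, CYP82C2 by 5.05, and AT3G54530, CYP702A5 and PXMT1 by 6.36, 5.19 and 4.95.

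Markers of tissues were read in the same libraries. The leaf markers summed to 2629223 to 2793642 counts in the control and 2431114 to 2467633 in PQ + HS, and all 5 were detected in both groups. Seed storage markers had 1044 to 1329 in the control and 3090 to 3931 in PQ + HS, led by CRA1 (log2 1.93), with 1 of 6 tested members called higher and 1 lower. Flower markers had 681 to 786 against 425 to 510, with AP1 at 0 in PQ + HS. The part of these markers in the results above was not tested.

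The comparison with the libraries labelled HS asks, by the labels as given, what paraquat added to heat. There 78.7% of genes were called, 8495 higher (39.4%) and 8445 lower (39.2%), with 2297 (10.7%) and 2116 (9.83%) by at least 2-fold, and 3265 and 15755 under scaling to the same total, which moved the median to -0.57. Chaperones were again the highest, with 15 of 16 sHSPs higher (median 5.74), 16 of 17 HSP70s (median 2.01), all 10 HSP90s and HSP100s and all 14 cochaperones. HSP18.2 had 699, 613 and 760 counts in the libraries labelled HS and 807904, 804710 and 820342 in PQ + HS (log2 10.20 ± 0.13 SE), and HSP70b rose by 9.03. AT5G53680, an RNA-binding protein, had 1.58 to 5.27 counts in the libraries labelled HS and 3235 to 3312 in PQ + HS (log2 9.61). Of the ROS-scavenging enzymes 26 of 32 were higher (5 by at least 2-fold, median 0.46) and 3 lower. APX2 was at 7.12 and APX1 at 0.52. The median of this list and the value of APX1 are smaller than the shift of all genes under scaling to the same total. AOX1A was higher by 2.50 and FLS1 by 3.08. All 13 glucosinolate genes were lower (median -1.12), as were 13 of 15 mitotic genes (median -1.07). EXPA8 fell by 3.56, SLAH1, an anion channel relative, by 4.20, AT1G26390, a berberine bridge-type enzyme, by 4.83, AT4G11170, a TIR-NBS-LRR resistance gene, by 5.16 and AT3G54530 by 5.89. The PDF1.2 genes were not called, with PDF1.2A at 204 to 220 counts in the libraries labelled HS and 222 to 253 in PQ + HS.

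The comparison with the libraries labelled PQ asks, by the labels as given, what heat added to paraquat. There 75.2% of genes were called, 8185 higher (38.0%) and 8002 lower (37.2%), with 1375 (6.38%) and 1847 (8.58%) by at least 2-fold. Under scaling to the same total 3663 were higher and 13988 lower, and the median moved to -0.36. The chaperone differences were smaller here, with medians of 1.95 for the sHSPs (16 of 16 higher), 1.37 for the HSP70s, 1.57 for the cochaperones and 1.46 for the HSP90s and HSP100s. Of the last, 9 of 10 were higher, and HSP90.5, the chloroplast form, was lower (log2 -0.31). HSP17.6A-CI and HSP70b rose by 3.80 and 3.78. ABA genes fell, with 15 of 22 lower and 3 higher (median -0.53), led by AHG1 (log2 -2.73) and RD29B (log2 -2.58), and all 10 flavonoid genes tested were lower (median -1.08). VSP2 fell by 1.99, P5CS1 by 2.27 and LHY by 1.63. Among the largest differences, AT3G02645, a membrane protein of unknown role, had 3.23 to 6.10 counts in the libraries labelled PQ and 202, 232 and 247 in PQ + HS (log2 5.41), and PDF1.2C rose by 4.93. AT3G02205, a small nucleolar RNA annotated inside HSC70-3 on the same strand, was higher by 6.54, but its reads cannot be separated from those of HSC70-3. AT1G48720, annotated as a Copia-like retrotransposon, was higher by 5.27, and 95.2% of its 50-base words occur elsewhere in the genome. AT1G53541, at 4.74, overlaps a gene on the opposite strand. AT4G11170 fell by 5.43, AT3G24750 by 5.03, WRKY30 by 4.60, BGLU24 by 4.30 and NUDT24 by 4.22. Without PQ replicate 1 the counts were 7926 and 7717.

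The interaction asks whether the combination differed from the sum of both single effects on the log2 scale. It was called for 68.2% of genes, 7201 above the sum (33.4%) and 7481 below it (34.7%), with 1362 (6.32%) and 2198 (10.2%) by at least 2-fold. Under scaling to the same total the counts were 4136 and 11267 and the median moved to -0.28. Of the sHSPs 14 of 16 were below the sum, with a median of -4.05, although each of those 14 was higher in PQ + HS than in either single stress. HSP17.4A-CI, for one, was higher than the control by 8.16 in the libraries labelled HS, by 11.21 in those labelled PQ and by 12.33 in PQ + HS, so that the interaction was -7.04 ± 0.22 (SE). It overlaps genes on the opposite strand, as does AT1G72660 (interaction -6.24). HSP18.2 was not called (-0.14, adjusted p = 0.501), with steps of 3.46, 10.34 and 13.67, and neither was HSFA7B (0.28, adjusted p = 0.285). HSP70b lay above the sum by 2.05, with 1.73, 6.98 and 10.76. HSP70s were mixed, with 9 of 17 above and 6 below.

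Other lists showed what the combination did beyond chaperones, beside 33.4% of all genes above the sum and 34.7% below it. The list medians are to be read beside the interaction median of all genes under scaling to the same total, -0.28. ABA genes were below the sum in 17 of 22 cases (median -0.76), led by AHG1 (-4.45), RD29B (-3.54) and HAI1 (-3.38). Aquaporins were below it in 11 of 13 (median -1.08) and PIF genes in 11 of 13, with PIF4 at -2.03. Chlorophyll genes were above it in 10 of 14 (median 0.50), with PORA at 2.90 and PORB at 1.55. FER3 had 3394 to 3532 counts in the control, 3467 to 3866 in the libraries labelled PQ, 2595 to 2800 in those labelled HS and 19154 to 19316 in PQ + HS, an interaction of 2.73 ± 0.05 (SE, adjusted p = 8.41e-38). Its high level was thus found in PQ + HS and in neither single stress. GOLS3 did the same, with means of 41.4, 30.6, 19.4 and 139 counts in that order (interaction 3.36). IRT1 (4.42), PCC1 (5.90), AT3G01260 (5.97) and MAM3 (1.73) were above the sum. Each was lower than the control in the libraries labelled PQ and in those labelled HS, and its fall in PQ + HS was smaller than both falls added. AT3G02645 was at 6.13 and AT4G03292 at 4.93. AT4G11170 had the lowest interaction, -7.05 ± 0.60 (SE), with 35.1 to 55.9 counts in the control, 148 to 184 in the libraries labelled PQ, 111 to 169 in those labelled HS and 0 to 11.3 in PQ + HS. CYCA1;1 was at -2.01, CYP71A12 at -2.14 and CYP79F1 at -1.39, each lower in PQ + HS than the sum of its single falls. PQ replicate 1, which stands apart, decides none of the counts, which were 7085 and 7270 without it.

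**Figure D5:**
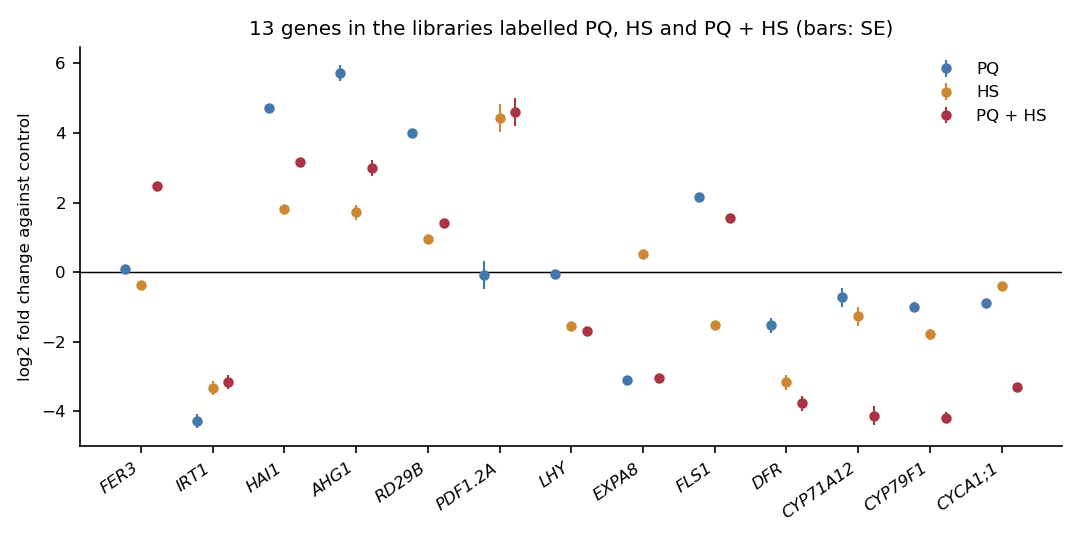
Points give the log2 fold change against control (y axis) of 13 genes in the libraries labelled PQ, HS and PQ + HS, with bars for the SE, and all 3 share the same controls. FER3 is high in PQ + HS alone (2.47), PDF1.2A is high in HS and PQ + HS, EXPA8 is low in PQ and PQ + HS, and CYP71A12, CYP79F1 and CYCA1;1 are lowest in PQ + HS.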

How the data were processed

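The submitters' processing notes name FastQC 0.11.7, STAR 2.4.0.1, DESeq2 1.20.0 and the build TAIR10. The deposited values (unit: signal) are reads per gene after division by a size factor for the library, without a correction for gene length or total. Division of the values by the step of their library gave whole reads in 100% of cases (tolerance 1e-06), so the reads were recovered. Groups and replicate numbers came from the labels, and the 3 biological replicates per group were pools of seedlings.

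Genes averaging 10 or more were tested with limma 3.58.1 (R 4.3.3), with a mean-variance trend, on log2 values of the normalised count with a pseudocount of 1. All 48 libraries and their 16 groups were modelled jointly. P-values were adjusted by Benjamini-Hochberg within each comparison and called under 0.05. A fold change on this scale understates the change of low genes, and differences given as "rose by" or "fell by" are on the log2 scale. The standard error is that of the limma estimate. The detection floor was 3 reads, and intervals (95%, exact) cover counting error only. In simulated data of 21289 genes, all groups were drawn from the control means, and 200 genes were changed in PQ + HS only. The comparisons with control, HS and PQ and the interaction called 160, 163, 161 and 143 of these, with 12, 9, 11 and 2 others. Such data hold no shift between scalings, so they do not bear on it.

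The genes compared and the 29 lists (399 genes) were chosen with earlier results of these data known. Named were the largest rises and falls among the called members of each list, members with the largest differences in the other comparisons, HSFA2, HSP101, APX1, APX2, MBF1C and the 9 genes followed in mutants, the 10 largest rises and falls against control and the 5 largest in each other comparison (mean of at least 50). Further list members were named for their role after their values were seen. Promoters and positions are those of TAIR10.1 (RefSeq), which holds 32548 of the 32833 genes. Strand use in counting is not given in the sources used here, so overlapping genes are uncertain. Shares of reads were compared by exact two-sided permutation tests.

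Alternatives were pseudocounts of 0.1 and 10, no filter, only the compared groups in the fit, scaling to the same total, quantile normalization, a replicate block, each replicate left out, a fold change of at least 2, nuclear genes as denominator of shares, and edgeR 4.0.16 or DESeq2 1.42.0 on recovered reads. Python 3.11.15, numpy 2.4.6, pandas 2.3.3, scipy 1.17.1 and matplotlib 3.10.9 were used.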

Additional observations from a re-analysis of the deposited data

Results flagged for a closer look

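The difference between the effect of heat with and without paraquat was tested for all genes, and 7201 lay above and 7481 below the sum of both single effects (limma interaction, adjusted p under 0.05). The genes named by size were HSP17.4A-CI (log2 -7.04), HSP17.6-CII (-6.62), HSP17.6C-CI (-6.49), AT1G72660 (-6.24) and AT4G11170 (-7.05) below the sum, and AT3G02645 (6.13), AT3G01260 (5.97), PCC1 (5.90), AT3G02205 (5.07) and AT4G03292 (4.93) above it. Of the words of 50 bases in PCC1, 38.2% occur elsewhere in the genome, so its reads may be shared with a copy.

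The small heat shock proteins were also read in the groups that enter no comparison here. In 9 of these groups their summed normalised count lay above that of the control libraries (median 3508). Groups without heat in their label had medians of 919717 (Salt), 509627 (Salt + PQ), 966435 (HL), 197080 (Salt + HL) and 565713 (PQ + HL). Groups with heat had 425934 (Salt + HS), 8514377 (HL + HS), 8791706 (Salt + HL + HS) and 8150868 (Salt + PQ + HS). The last 3 lie above the 6573830 of PQ + HS. The other 3 groups outside the comparisons lay below the control, with 3115 (Salt + PQ + HL), 3207 (PQ + HL + HS) and 2729 (Salt + PQ + HL + HS). No test was made between these groups.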

How the results depend on the processing

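Scaling each library to the same total moved the numbers of genes called higher and lower against control from 9077 and 9071 to 4048 and 15453, against HS to 3265 and 15755, against PQ to 3663 and 13988 and in the interaction to 4136 and 11267, and the number higher in PQ against control from 8652 to 5446. A fold change of at least 2 left 3309 and 3111 against control, 2297 and 2116 against HS, 1375 and 1847 against PQ, 1362 and 2198 in the interaction, 2702 and 1669 in PQ against control and 1330 and 956 in HS against control. Under scaling to the same total LAT4 was at -0.057, ABA2 at -0.32, LHCB1.4 at -0.16, PIP1;1 at -0.19, NEET at -0.28 and PORA at -0.019 against control, each of them higher as deposited. Under quantile normalization LHCA1 was at -0.23, LHCB1.4 at -0.98 and PIP1;1 at -0.21 against control and LHCB1.3 at -0.52 in the interaction, again against a positive value as deposited. The cause of these changes was not tested beyond the shift of the median given above. With 1 replicate left out, the numbers higher and lower were 8892 to 8930 and 8821 to 8857 against control, 8252 to 8296 and 8154 to 8221 against HS, 7911 to 7971 and 7672 to 7728 against PQ, 6976 to 7106 and 7240 to 7349 in the interaction, 8383 to 8484 and 8080 to 8150 in PQ against control and 7647 to 7812 and 6948 to 7102 in HS against control. Same-numbered libraries of PQ + HS and of the control, HS or PQ did not deviate together (correlations of -0.056 to 0.008). No pairing by number was thus seen, and whether replicates were handled together was not tested. The fit with the replicate block gave 9071 and 9064 against control, 8496 and 8446 against HS, 8191 and 7994 against PQ and 7204 and 7475 in the interaction. On recovered reads edgeR called 8899 and 9356 and DESeq2 9068 and 9043 against control. In the interaction PAP2 lost its call under a pseudocount of 0.1, quantile normalization, edgeR and DESeq2 and without control replicate 2. Among the values of single genes, 5574 kept direction and side of the threshold and 10 changed sign. Counting error allows up to 3 reads for a gene that had none over a group.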

Other observations

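Families that belong to none of the lists were counted by product name after the values had been seen, with no test. Of 237 pentatricopeptide repeat proteins, which process RNA in chloroplasts and mitochondria, 71 fell and 6 rose by at least 2-fold in PQ + HS against control, with a median log2 fold change of -0.62, beside 14.4% lower and 15.4% higher among all genes. Other families were lower too. Of 31 cellulose synthases and relatives 13 fell and 1 rose by at least 2-fold (median -0.43). Of 23 expansins 15 fell and 4 rose (median -1.29), of 53 class III peroxidases 24 fell and 4 rose (median -0.75), and of 52 GDSL lipases 23 fell and 4 rose (median -0.83). EXPA7, an expansin of root hairs, rose by 2.75, and EXPA17 fell by 4.30.

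Of 22 small nucleolar RNAs, which guide the modification of ribosomal RNA, 17 rose and 0 fell by at least 2-fold, with a median of 1.67 as deposited and 1.02 with libraries scaled to the same total. None of the 22 overlaps another annotated gene (0 of 22). A further 58 genes annotated as small nucleolar RNAs under another product name, AT3G02205 among them, had 30 rising and 2 falling by at least 2-fold (median 1.12). Of these, 21 overlap another gene, 20 on the same strand, so their reads cannot be separated from those of that gene. Ribosomal protein genes, 312 in all, had a median of -0.08, with 12 rising and 7 falling by at least 2-fold. Of 233 RING and U-box ubiquitin ligases 55 rose and 20 fell by at least 2-fold, and their median of 0.33 turned to -0.32 under scaling to the same total.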
